A study of Mus musculus with 4 samples.

Results

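Across the 4 lists of accessible chromatin from sorted mouse retinal endothelial cells, 764 regions at the ends of protein-coding genes were found in both Zeb1-CKO libraries and in neither control library. They were chosen by position and by presence alone. Overlapping or touching peaks of the 4 lists, on the 19 autosomes and X, were joined into regions. A region counted as held by each library with a peak in it, and was kept if it lay within 1 kb of either end of a RefSeq protein-coding gene. The 764 were 8.06% of the 9480 gene-end regions held by any library, and part of 25263 regions in all. They lay at the ends of 870 genes, 8.29% of the 10496 genes with a gene-end region. The opposite pattern, held by both controls and neither Zeb1-CKO library, was met by 8 gene-end regions, 0.0844% of them, at the ends of 8 genes, 0.0762% of those with a gene-end region. The imbalance was smaller with lists of equal length, each limited to its 7608 strongest peaks, where 274 regions were held by both Zeb1-CKO libraries alone and 103 by both controls alone. Only 76 of the 764 members overlapped one of these 274 regions. Without control replicate 1, and with all peaks, the Zeb1-CKO-only and control-only counts were 827 and 309. Over all 25263 regions, 2555 (10.1%) were held by both Zeb1-CKO libraries alone, and away from gene ends 1791 of 15783 (11.3%). Because presence in the Zeb1-CKO lists and absence from the control lists chose the members, these counts are a description and were not tested.

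The study compared chromatin accessibility, measured by ATAC-seq, between mice with lowered Zeb1 and control mice. In the Zeb1-CKO group (C57BL/6, genotype given as Zeb1 knockdown) there were 2 libraries of FACS-isolated endothelial cells from P16 retina, and in the control group (C57BL/6) there were 2 libraries of the same cells at the same age. Each library was made from 2000 sorted cells. The labels name no allele, Cre line or driving promoter, no sex, and do not say whether animals were pooled or whether libraries came from separate animals. The spread within a group may therefore be technical.

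Zeb1 is a transcription factor with clusters of zinc fingers at both ends and a homeodomain between them. It binds E2-boxes, the words CACCTG and CAGGTG, which are one motif read from either strand, and is best known as a repressor of epithelial adhesion, polarity and splicing genes. In ATAC-seq a transposase inserts adapters into open DNA, and the promoters of active genes are among the most open places in a nucleus.

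Zeb1-CKO replicates 1 and 2 listed 13689 and 19886 peaks, and control replicates 1 and 2 listed 7608 and 13672. Gene-end regions held numbered 7464 and 8714 in the Zeb1-CKO libraries, a mean of 8089 ± 884 (SD, n = 2), against 4031 and 7316 in the controls, a mean of 5673.5 ± 2323 (SD, n = 2). The ratio of the means was 1.43, with p = 0.33 in an exact two-sided permutation test, which cannot give less with 2 libraries a group. Control replicate 1 stood apart with its short list: 2420 gene-end regions, 25.5%, were held by every library but that one. The lists do not give read depth, so the lack of a peak and a shortage of reads cannot be told apart. Of 12 marker genes of endothelium, the Zeb1-CKO libraries held a region at the ends of 6 and 7, and the controls at the ends of 3 and 6. The end of Zeb1 itself, on chromosome 18, was open in both Zeb1-CKO libraries and in control replicate 2, which does not check the genotype, since a peak list shows neither the deleted stretch nor the transcript.

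**Figure D1:**
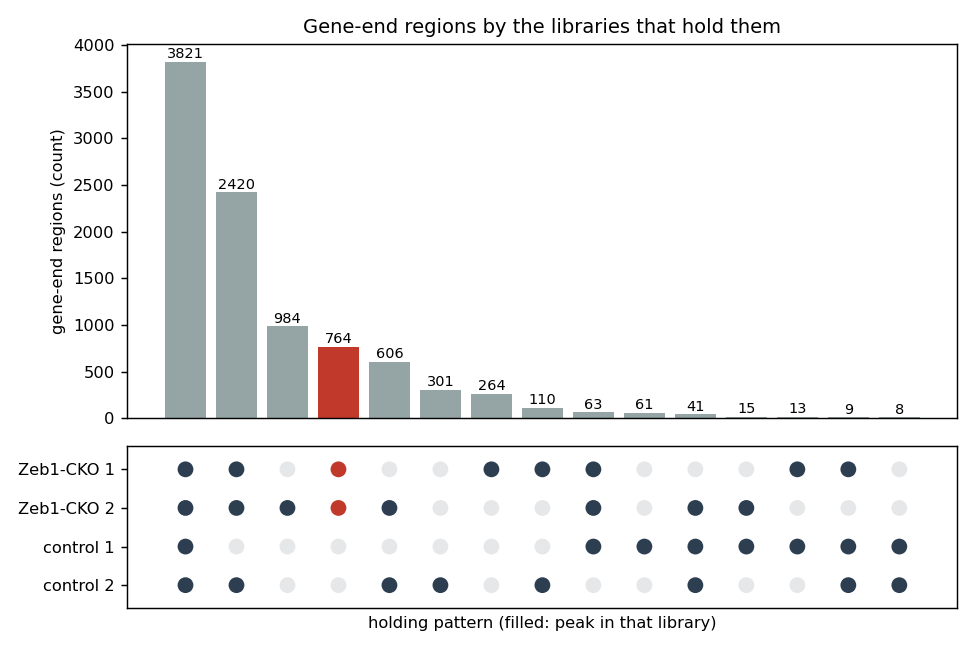
Bars give the number of gene-end regions (vertical axis, count) for each pattern of libraries that held them, and filled dots under each bar mark the libraries with a peak. The 764 regions held by both Zeb1-CKO libraries alone, in red, come after 3821 held by all 4 libraries, 2420 missing only from control replicate 1 and 984 held by Zeb1-CKO replicate 2 alone; 8 regions were held by both controls alone.

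The promoters below are those of the epithelial list genes whose Zeb1-CKO-only region overlapped a RefSeq promoter window, in order of peak rank, up to 8, followed by 2 chosen after the motif counts were seen because they held 4 E2-boxes. They show where the word that Zeb1 reads lies in these promoters. Each window holds 250 bases before and 50 bases from the gene's start onward, from RefSeq (GRCm38.p6, the assembly with the mm10 chromosomes), printed 5′ to 3′ on the gene's strand, with E2-boxes in capitals. Distances below are from the gene's start to the first letter of the box, negative upstream, with the first base of the gene as 1.
Cldn3 (chr5:134985964-134986263, + strand): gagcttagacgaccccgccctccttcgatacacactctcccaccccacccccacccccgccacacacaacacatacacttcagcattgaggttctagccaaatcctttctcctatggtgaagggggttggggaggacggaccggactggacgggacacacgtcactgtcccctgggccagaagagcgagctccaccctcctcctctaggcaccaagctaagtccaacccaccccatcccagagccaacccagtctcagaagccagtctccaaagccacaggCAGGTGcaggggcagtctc
F11r (chr1:171437311-171437610, + strand): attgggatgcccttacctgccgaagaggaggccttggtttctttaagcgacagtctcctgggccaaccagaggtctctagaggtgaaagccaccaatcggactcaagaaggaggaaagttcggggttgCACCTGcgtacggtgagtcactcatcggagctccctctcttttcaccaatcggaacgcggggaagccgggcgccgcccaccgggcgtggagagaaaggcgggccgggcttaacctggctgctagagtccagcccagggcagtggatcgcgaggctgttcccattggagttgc
Cldn4 (chr5:134946885-134947184, - strand): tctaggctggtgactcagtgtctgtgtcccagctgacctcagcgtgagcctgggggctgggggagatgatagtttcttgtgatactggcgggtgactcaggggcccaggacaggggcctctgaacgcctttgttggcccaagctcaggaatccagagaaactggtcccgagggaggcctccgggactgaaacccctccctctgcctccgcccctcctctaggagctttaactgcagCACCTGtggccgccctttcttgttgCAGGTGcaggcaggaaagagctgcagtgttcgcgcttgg
Spint2 (chr7:29281928-29282227, - strand): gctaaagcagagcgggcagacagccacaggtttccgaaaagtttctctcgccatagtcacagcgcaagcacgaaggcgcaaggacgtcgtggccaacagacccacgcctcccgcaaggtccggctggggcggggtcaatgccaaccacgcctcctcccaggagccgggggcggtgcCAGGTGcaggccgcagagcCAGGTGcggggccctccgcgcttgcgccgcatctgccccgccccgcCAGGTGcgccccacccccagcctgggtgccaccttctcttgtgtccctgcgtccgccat
Eps8l2 (chr7:141338752-141339051, + strand): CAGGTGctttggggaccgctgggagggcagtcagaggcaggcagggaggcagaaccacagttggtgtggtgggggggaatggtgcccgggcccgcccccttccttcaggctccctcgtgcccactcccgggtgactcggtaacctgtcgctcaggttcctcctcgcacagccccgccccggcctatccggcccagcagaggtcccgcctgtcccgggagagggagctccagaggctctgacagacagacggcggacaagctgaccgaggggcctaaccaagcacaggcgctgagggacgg
Epcam (chr17:87635729-87636028, + strand): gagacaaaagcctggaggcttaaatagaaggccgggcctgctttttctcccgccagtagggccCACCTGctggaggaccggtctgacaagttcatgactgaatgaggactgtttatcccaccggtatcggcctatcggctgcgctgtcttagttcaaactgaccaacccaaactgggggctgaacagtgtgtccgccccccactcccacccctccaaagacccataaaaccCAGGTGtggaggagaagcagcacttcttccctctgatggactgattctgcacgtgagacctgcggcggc
Patj (chr4:98395576-98395875, + strand): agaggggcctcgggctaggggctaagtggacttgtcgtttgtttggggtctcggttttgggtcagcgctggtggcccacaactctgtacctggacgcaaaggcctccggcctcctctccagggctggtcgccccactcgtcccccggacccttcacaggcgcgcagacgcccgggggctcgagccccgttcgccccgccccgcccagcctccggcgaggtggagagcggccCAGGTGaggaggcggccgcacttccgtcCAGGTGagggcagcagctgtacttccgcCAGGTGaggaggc
Cldn7 (chr11:69965171-69965470, + strand): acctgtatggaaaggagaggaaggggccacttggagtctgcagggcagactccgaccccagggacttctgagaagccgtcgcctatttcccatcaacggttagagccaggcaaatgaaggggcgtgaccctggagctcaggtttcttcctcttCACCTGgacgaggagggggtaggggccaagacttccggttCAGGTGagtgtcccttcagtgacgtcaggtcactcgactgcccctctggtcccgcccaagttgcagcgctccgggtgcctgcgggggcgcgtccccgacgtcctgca
Mfsd6l (chr11:68555936-68556235, + strand): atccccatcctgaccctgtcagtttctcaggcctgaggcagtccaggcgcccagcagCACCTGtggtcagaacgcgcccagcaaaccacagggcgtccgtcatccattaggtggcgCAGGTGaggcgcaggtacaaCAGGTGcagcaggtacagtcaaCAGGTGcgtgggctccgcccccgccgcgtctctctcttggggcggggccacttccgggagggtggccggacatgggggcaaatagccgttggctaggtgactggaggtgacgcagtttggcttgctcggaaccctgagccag
Crb3 (chr17:57061951-57062250, + strand): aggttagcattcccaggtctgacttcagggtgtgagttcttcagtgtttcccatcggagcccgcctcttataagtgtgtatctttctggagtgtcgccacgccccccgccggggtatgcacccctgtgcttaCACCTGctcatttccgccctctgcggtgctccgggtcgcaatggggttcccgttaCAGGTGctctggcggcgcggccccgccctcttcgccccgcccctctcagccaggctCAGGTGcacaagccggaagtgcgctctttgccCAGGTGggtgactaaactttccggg

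Cldn3, which encodes claudin 3, a tight junction protein of epithelia, had 1 box at 32. Cldn4, another tight junction claudin, had boxes at -14 and 12, on either side of its start. Spint2, an inhibitor of membrane-bound serine proteases, had 3 boxes at -74, -55 and -9. In Patj, a scaffold of the Crumbs polarity complex, 3 boxes lay at -19, 10 and 38. Epcam, an epithelial adhesion molecule, had boxes at -187 and -19, and Cldn7 at -97 and -57. F11r, the junctional adhesion molecule A that endothelium also makes, had 1 box at -122, and Eps8l2, an actin regulator, had 1 at -250, the first base of its window. Crb3, the epithelial Crumbs protein, had boxes at -118, -63, -7 and 26. Mfsd6l, a membrane protein of the major facilitator superfamily, had 4 boxes between -193 and -92, all upstream of its start. A match of 6 letters is a description of the sequence and not a bound site.

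The best-ranked member lay at Cldn3, and 5 of the 15 best-ranked lay at genes of the epithelial lists. Of all 870 genes with a member at their ends, 23 were on these lists, which were drawn up with earlier results of these data known. Members were ranked by the weaker of their 2 positions in the Zeb1-CKO lists, where a percentile of 0 is the top of a list ordered by the authors' −log10 p. The Cldn3 region (chr5:134985699-134986355, over the gene's start) came first, with fold enrichments over its own library's background of 7.09 and 8.13 in Zeb1-CKO replicates 1 and 2, at percentiles 7.39 and 7.17, and no peak in either control. F11r was number 4 (chr1:171437284-171437675), with folds of 6.00 and 5.98 and percentiles 10.6 and 22. Perp, a desmosome-associated protein and p53 target, was number 6, with folds of 5.91 and 7.08. Cldn4 (chr5:134946853-134947341) had folds of 4.57 and 5.62, and Spint2 (chr7:29281808-29282210) had 5.26 and 6.40. The nearest control peak was 3864 bp away from the Cldn4 region and between 21525 and 108291 bp away from the other 4 of these 5.

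The other 10 of the best-ranked 15 were of mixed function. F2rl1, the protease-activated receptor that trypsin-like proteases cleave, was number 2 with folds of 6.04 and 7.0, and Il23a, the p19 subunit of interleukin 23, was number 3 with 5.66 and 6.89. One region on X lay between Taz, the cardiolipin-remodelling enzyme tafazzin, and Dnase1l1, a DNase I relative, with folds of 6.19 and 6.68. Fnbp1l, which links membrane curvature to actin assembly, had its region 927 bp from its start, with folds of 5.28 and 5.87. Cdc42bpg, a kinase acting downstream of Cdc42, had folds of 5.23 and 7.23. The remaining 5 were Mctp2, Sh3tc1, Ankrd22, 2010315B03Rik and 2510002D24Rik, with folds between 5.71 and 7.16.

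Most members lay in the lower part of both lists. Their median fold was 3.95 in Zeb1-CKO replicate 1, where they ran between 2.49 and 8.41, and 4.55 in replicate 2, between 2.96 and 9.18. Median percentiles were 73.7 and 64.1, and 615 members (80.5%) and 522 members (68.3%) fell below the middle of the replicate 1 and the replicate 2 list. Only 16 members (2.09%) and 52 members (6.81%) reached the top 25% of those lists, and 7 did so in both. Gene-end regions held by all 4 libraries stood far higher in the same lists, at median percentiles of 20.5 and 14.6 with median folds of 5.66 and 7.10. Regions missing only from control replicate 1 lay between, at 55.9 and 39.7. Regions held by Zeb1-CKO replicate 2 and control replicate 2 alone were as low in the Zeb1-CKO replicate 2 list as the members were, at a median percentile of 63.1. In both libraries the authors' −log10 q was at least 3 for 239 members (31.3%). Over the 764 members the percentiles of the 2 Zeb1-CKO lists had a Spearman rho of 0.358, a description of regions that share libraries.

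**Figure D2:**
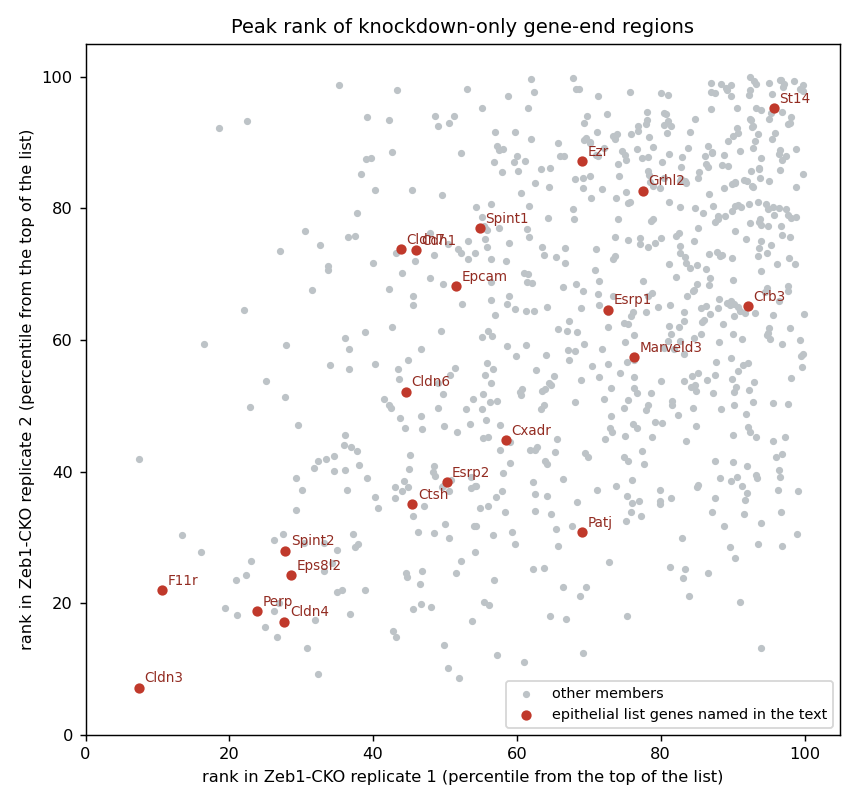
Each point is 1 of the 764 regions, placed by its percentile from the top of the Zeb1-CKO replicate 1 list (horizontal axis) and of the Zeb1-CKO replicate 2 list (vertical axis), so the strongest are at the lower left. Red points are the epithelial list genes named in the text: Cldn3 is nearest the corner at 7.39 and 7.17, St14 is among the weakest at 95.8 and 95.3, and most grey points lie above 50 on both axes.

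Genes with epithelial functions were members more often than genes in general. Of 102 genes on the 5 epithelial lists, 66 had a gene-end region in some library, and 23 of them (34.8%) had one held by both Zeb1-CKO libraries alone, against 8.29% of all genes with a gene-end region. A gene-end peak was listed for 51 and 65 of the 102 genes in the Zeb1-CKO libraries, against 11 and 29 in the controls. No gene of these lists showed the opposite pattern. With only peaks of a −log10 q of at least 3 the share was 18 of 58 (31.0%) against 9.80% of all genes, and with the 7608 strongest peaks of each list it was 10 of 41 (24.4%) against 4.23%. Without control replicate 2 it was 39 of 66 (59.1%) against 35.6% of all genes, a smaller contrast. The lists were drawn up with earlier results of these data known, so this is a description and not independent evidence.

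Among junction and adhesion genes, 11 of 24 with a region were members (45.8%), and gene-end peaks were present for 18 and 23 of the 33 listed genes in the Zeb1-CKO libraries against 3 and 6 in the controls. Besides Cldn3, F11r, Perp and Cldn4, they included Cldn6 and Cldn9, neighbouring claudin genes that share 1 region (chr17:23680447-23682316) with folds of 3.66 and 4.54. Cdh1, which encodes the adherens junction protein E-cadherin, had folds of 4.93 and 4.33 at percentiles 45.9 and 73.6. Epcam had folds of 4.41 and 4.44 at percentiles 51.5 and 68.2, and Cldn7 had 4.84 and 4.32. The list also held Cxadr, a junctional adhesion protein, with folds of 4.67 and 5.21, and Marveld3, a tight junction protein, with 3.86 and 4.87, both named after their values were seen. As a family, 5 of the 9 claudin genes with a gene-end region were members.

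Epithelial regulators gave 4 members of 11 genes with a region (36.4%). Among them, the paralogous splicing regulators Esrp2 and Esrp1, which set epithelial exon choice, had folds of 3.67 and 4.91 and of 3.91 and 4.53. A peak of control replicate 2 lay 966 bp away from the Esrp2 region, also at the gene's end. Grhl2, a grainyhead factor that maintains epithelial gene programmes, had folds of 3.76 and 4.05 at percentiles 77.6 and 82.7, and its nearest control peak was 225201 bp away.

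Proteases and their inhibitors gave 4 members of 7 genes with a region (57.1%), and none of the 12 listed genes had a gene-end peak in control replicate 1 and 1 had one in control replicate 2. After Spint2 came Ctsh, the lysosomal protease cathepsin H, with folds of 4.97 and 5.89. Spint1, the inhibitor of matriptase, had folds of 4.30 and 4.12, and St14, matriptase itself, had 3.48 and 3.55 at percentiles 95.8 and 95.3, close to the foot of both lists. Polarity genes were closer to the background: 2 of 17 with a region were members (11.8%), Patj with folds of 4.28 and 6.21 and Crb3 with 3.0 and 4.22, and 14 of 20 listed genes had a gene-end peak in control replicate 2. Of the keratin and epithelial cytoskeleton genes, 2 of 7 with a region were members, Eps8l2, which shares its region with the transcription factor gene Deaf1, and Ezr, which encodes the membrane-actin linker ezrin, with folds of 3.71 and 3.74. Of 9 marker genes of epithelium, 7 had a gene-end region, and all 7 were members: each was held by both Zeb1-CKO libraries and by neither control. Krt8 and Krt18 had none in any library.

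**Figure D3:**
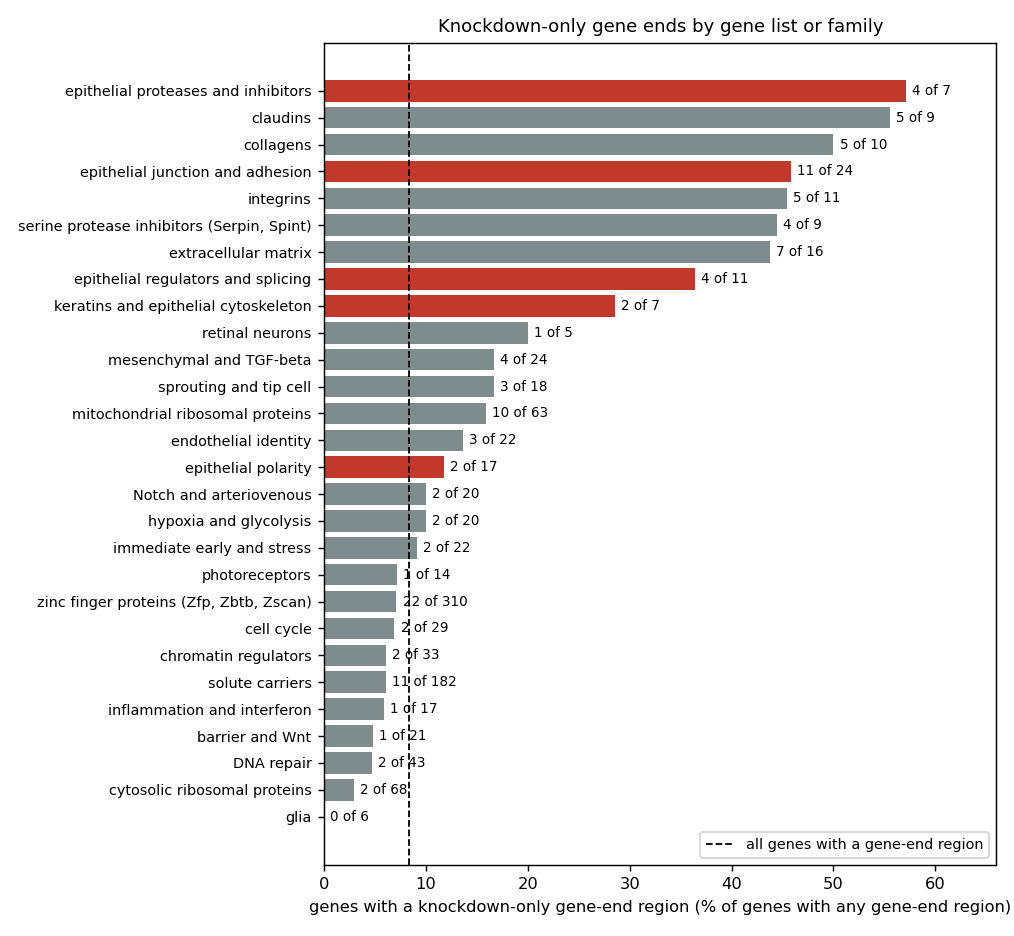
Bars give the percentage of genes with a gene-end region in any library that have one held by both Zeb1-CKO libraries alone, for each list or gene family, with counts beside the bars; the dashed line is the 8.29% of all such genes. Red bars are the epithelial lists, which reach 57.1% for proteases and inhibitors (4 of 7), while cytosolic ribosomal proteins stand at 2.94% (2 of 68).

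Genes of the extracellular matrix and its receptors were also frequent among the members, but with weak peaks. Of 16 matrix genes with a region 7 were members (43.8%), and without control replicate 2 the count was also 7 of 16, against 35.6% of all genes. Thbs1, the matrix protein thrombospondin 1 that restrains vessel growth, had folds of 3.70 and 5.31. The basement membrane collagens Col4a1 and Col4a2 share 1 region between their starts (chr8:11312425-11312841), with folds of 3.34 and 3.66 at percentiles 92.7 and 92.3. Hspg2, the basement membrane proteoglycan perlecan, had 4.47 and 3.40, and the laminin chain Lama5 had 2.82 and 4.51 and was the last of all 764 by rank, at percentile 99.9 in Zeb1-CKO replicate 1. When only peaks with a −log10 q of at least 3 were used in every library, this pattern was met by 1 of 9 matrix genes and by 0 of 5 collagens, against 9.80% of all genes at that limit and 5 of 10 collagens with all peaks. Among integrins, the receptors for these proteins, 5 of 11 were members: Itga10 with folds of 4.46 and 5.66, Itgb4 with 4.22 and 5.76, Itga5 with 4.79 and 4.03, Itga4 with 4.22 and 3.93, and Itgb3 with 6.06 and 3.66. With the −log10 q limit of 3 the integrin count was 4 of 10.

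Small numbers of vascular genes were members. Of 22 endothelial identity genes with a region 3 were (13.6%), against 8.29% of all genes: Myct1, an endothelial membrane protein, with folds of 4.40 and 5.04, Lyl1, a helix-loop-helix factor of blood and vessel cells, with 3.01 and 5.28, and Esam, an endothelial junction molecule, with 3.11 and 4.46. For Lyl1 and Esam a control peak lay 1206 and 1596 bp away. Limited to peaks with a −log10 q of 3 or more, the identity list gave 4 of 19 (21.1%) against 9.80% of all genes, and with the 7608 strongest peaks of each list 0 of 14 against 4.23%. The barrier and Wnt list gave 1 of 21, the Wnt co-receptor Lrp6, and the Notch and arteriovenous list gave 2 of 20, the ligand Jag2 and the arterial gap junction gene Gja4. Sprouting genes gave 3 of 18, among them Adm, the vasoactive peptide adrenomedullin, with folds of 5.30 and 5.25 at the far end of the gene. The others were Col4a1 and Col4a2, whose 1 shared region, also counted among matrix genes, lay at percentiles 92.7 and 92.3. Mesenchymal and TGF-beta genes gave 4 of 24 (16.7%), among them Cdh2, which encodes N-cadherin, with folds of 3.67 and 5.94, the receptor gene Tgfbr2 with 3.80 and 5.76, and Col1a1 with 3.61 and 3.92.

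Lists of widely used genes lay on both sides of the 8.29% of all genes. Cytosolic ribosomal proteins gave 2 members of 68, histone genes 1 of 55, DNA repair genes 2 of 43, chromatin regulators 2 of 33 and cell cycle genes 2 of 29, all below it, and hypoxia and glycolysis genes gave 2 of 20. Without control replicate 2 cytosolic ribosomal proteins gave 24 of 67 (35.8%), against 35.6% of all genes. Mitochondrial ribosomal proteins gave 10 of 63 (15.9%), led by Mrps24 with folds of 5.50 and 6.36, and subunits of respiratory complexes and ATP synthase gave 9 of 76 (11.8%), led by Atp5k with 5.31 and 5.50. When each list was limited to its 7608 strongest peaks, mitochondrial ribosomal proteins gave 2 of 43 (4.65%), against 4.23% of all genes. With a −log10 q of at least 3 they gave 9 of 52 (17.3%) against 9.80%. With at least 50% of a region covered they gave 13 of 63 (20.6%) against 14.0%.

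Lists for the other cells of the retina had few genes with a region, too few to set their shares apart from the 8.29% of all genes. Of the 29 photoreceptor genes, the Zeb1-CKO libraries held a region at the ends of 4 and 12 and the controls at the ends of 2 and 12, more in both replicate 2 libraries, and 1 of 14 with a region was a member, Gngt2, which shares its region with Abi3. Glial genes gave 0 of 6, mural cell genes 0 of 3, leukocyte and erythroid genes 0 of 2, and retinal neuron genes 1 of 5, Slc6a9. The epithelial markers are listed above. Whether cells of an epithelium were present in the sorted Zeb1-CKO samples was not tested, and in bulk samples more cells of a type cannot be told apart from more open chromatin per cell.

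The members were narrower than shared gene-end regions and mostly at gene starts. Their median width was 523 bp (201 to 1894 bp), against 705 bp for regions held by all 4 libraries and 380.5 bp for those of the replicate 2 libraries alone. These are widths after joining, and regions held by all 4 were joined from the peaks of more libraries. Within Zeb1-CKO replicates 1 and 2, median peak widths were 369 and 401 bp at members, against 583 and 563 bp at regions held by all 4. Of the 764, 558 (73.0%) overlapped a gene end, against 90.7% of regions held by all 4. Of the 608 members whose nearest gene has a known strand, 568 (93.4%) lay at the start and 40 at the far end. The share at a start was 98.0% for regions held by all 4 libraries and 96.7% for those missing only from control replicate 1. The widest, by the narrower of their peaks, lay at Cux1 (1358 and 1312 bp in Zeb1-CKO replicates 1 and 2), Cdh2 (1384 and 1268 bp), Slc38a2 (1258 and 1254 bp), Cldn6 with Cldn9 (1722 and 1175 bp) and Smtn (1197 and 1164 bp). At the edge of the 1 kb window, the members at Srebf1, Cplx2 and Eps8l3 lay 997, 964 and 964 bp from a gene end, and the regions just outside it, at Lmnb1, Ints6l and Ptges, lay 1005, 1007 and 1008 bp away.

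Of the 870 genes with a member at their ends, 9 had another region of the same kind there: Timm44, Aopep, Dbn1, Tmc8, Ccdc97, Kazn, Pdlim2, Coasy and Pxdc1. How often genes in general had 2 or more gene-end regions was not counted, so this does not set the members apart. The ends of 2 or more genes shared 114 members (14.9%), and 1 lay at the ends of 3 genes, Alkbh1, Slirp and Nrp. A control peak was present within 1 kb of 13 members (1.70%) and within 10 kb of 193 (25.3%), and the median distance to the nearest was 25992.5 bp. Of the 870 genes, 78 (8.97%) had another gene-end region that a control held, and 187 (21.5%) had a control peak somewhere in the gene. The matching shares of other genes were not counted. A further Zeb1-CKO-only region lay in the body of 60 of the 870 genes (6.90%), against 5.20% of the other genes with a gene-end region. The members were spread over the chromosomes, with 5.93% of the gene-end regions of chromosome 19 and 10.4% of those of chromosome 3.

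E2-boxes were more frequent in the members' promoters than in those of shared regions or in promoters at large. Of the members, 520 (68.1%) overlapped a RefSeq promoter window, 635 windows in all. An E2-box was present in 175 of these 635 (27.6%, exact 95% binomial interval 24.1% to 31.2%), against 482 of 4006 (12.0%) in promoters of regions held by all 4 libraries, 438 of 2274 (19.3%) where only control replicate 1 lacked a peak, 89 of 466 (19.1%) for the replicate 2 libraries alone, and 4184 of all 21019 promoters (19.9%). Promoters that no region overlapped held one in 22.3%. At least 2 boxes were present in 46 of the 635 (7.24%), against 1.35% where all 4 libraries held the region and 2.83% of all promoters. The density was 1.23 boxes per kb, against 0.448 in promoters held by all 4 libraries and 0.772 over all. Binomial intervals cover counting error only, and neighbouring genes can share a window. Zeb1-CKO-only regions in gene bodies that overlapped a promoter window had a box in 29.9% of 107 windows.

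**Figure D4:**
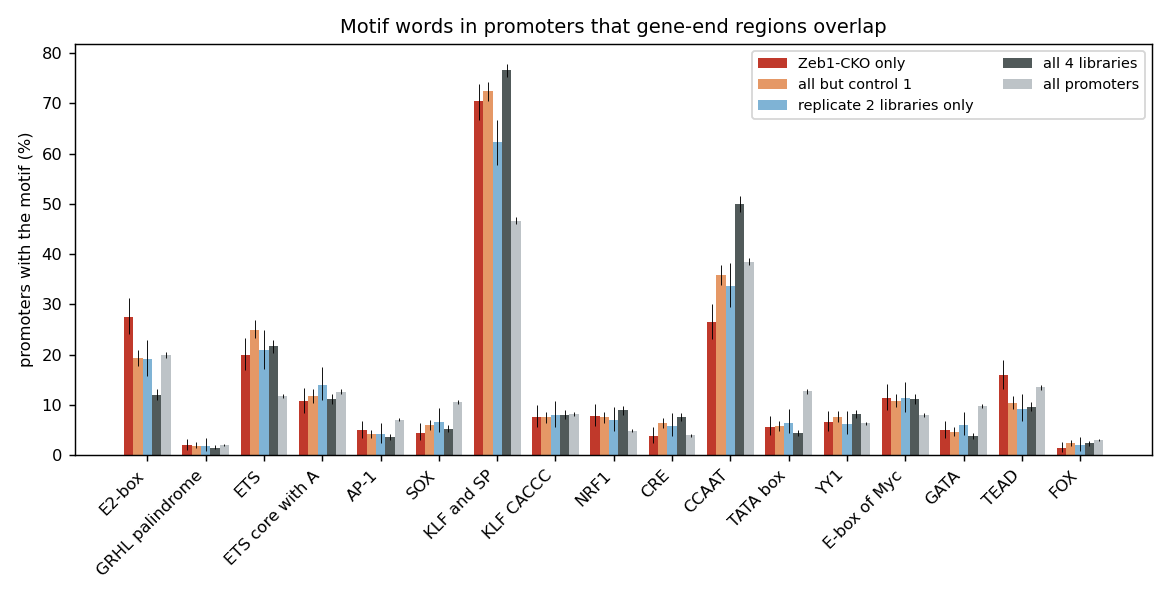
Bars give the percentage of promoters that hold each of 17 motif words on either strand (vertical axis), with exact 95% binomial intervals, for promoters overlapped by gene-end regions of 4 holding patterns and for all promoters. The E2-box stands at 27.6% in the Zeb1-CKO-only promoters, above the other 4 sets, while the CCAAT word is at 26.5% against 50.02% in promoters open in all 4 libraries.

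The E2-box share went with peak rank and with CpG content. By rank in the Zeb1-CKO replicate 2 list, a box was present in 38.6% of the promoters of members in the top 25% (17 of 44), in 37.3% between 25% and 50%, in 25.9% between 50% and 75% and in 20.2% below that. Promoters of members with a −log10 q of at least 3 in both libraries held a box in 67 of 198 cases (33.8%), and the others in 108 of 437 (24.7%). In promoters of regions held by all 4 libraries the shares over the same bands were 12.9%, 10.8%, 8.0% and 5.56%, and in those of the replicate 2 libraries alone they were 22.2%, 15.8%, 21.6% and 18.4%. Where only control replicate 1 lacked a peak they were 23.5%, 17.8%, 17.9% and 17.3%, also highest in the top band. By rank in the Zeb1-CKO replicate 1 list the members' shares were 63.6% (7 of 11), 35.3%, 27.8% and 23.2%, against 12.8%, 11.3%, 9.03% and 13.95% in regions held by all 4 libraries. In that list, regions that only control replicate 1 lacked also fell from band to band, at 28.0%, 19.2%, 18.5% and 16.4%. By the ratio of observed to expected CpG, the share of members fell from band to band, being 47.6% below 0.4 and 36.2%, 26.2%, 21.03% and 17 of 85 in the bands above it. For all promoters it was 22.6%, 22.6%, 20.3%, 16.01% and 11.6% over the same bands, below the members in each. The median ratio of the members' promoters was 0.773, and 73.5% had a ratio of at least 0.6, against 89.0% where all 4 libraries held the region.

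**Figure D5:**
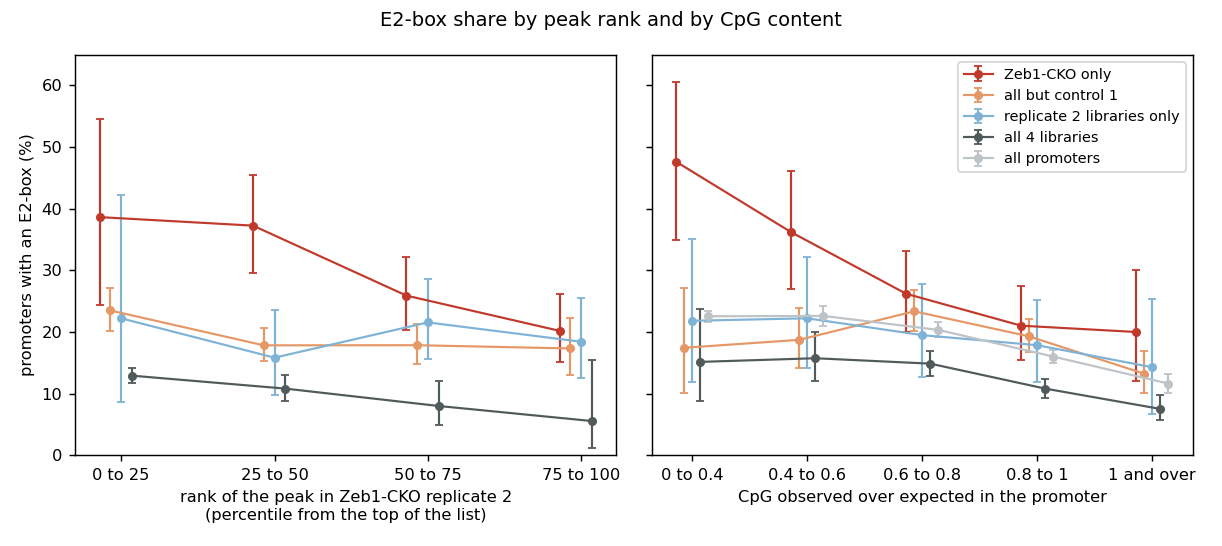
Points give the percentage of promoters with an E2-box (vertical axis), with exact 95% binomial intervals, by rank of the peak in the Zeb1-CKO replicate 2 list (left, percentile bands) and by the ratio of observed to expected CpG (right, bands). Zeb1-CKO-only promoters, in red, lie highest in every band, at 38.6% in the top rank band and 47.6% in the lowest CpG band, and their intervals overlap those of other sets in several bands.

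The epithelial promoters were rich in E2-boxes, but too few to set the share of the whole. Of the 12 epithelial-list promoters among the members, 10 held an E2-box (83.3%), against 40 of 89 epithelial-list promoters in all (44.9%). These 12 came from 11 of the 23 epithelial list genes that were members, and the others had no promoter window that a member overlapped. The Eps8l2 box is also the 1 counted in the overlapping Deaf1 promoter. The members' other promoters held an E2-box in 165 of 623 (26.5%), against 27.6% with the epithelial ones included. Among other motif words, the TEAD word GGAATG was present in 15.9% of the members' promoters, against 9.56% where all 4 libraries held the region and 13.5% of all promoters, and was as frequent, at 15.8%, in promoters that no region overlapped. CCAAT was present in 26.5%, against 50.02% and 38.5%, and the CRE word TGACGTC in 3.78%, against 7.59% and 3.88%. The ETS word CCGGAAG, common in endothelial promoters, was present in 127 of the 635, against 21.6% where all 4 libraries held the region and 11.7% of all promoters. The KLF and SP word GGGCGG was present in 70.4%, against 76.6% and 46.6%. The palindrome read by grainyhead factors, AACCNGTT, was present in 1.89%, against 1.47% and 1.96%. The other 10 words were present in 1.42% to 11.3% of the members' promoters. In members, in promoters of regions held by all 4 libraries and in all promoters, the share was 4.88%, 3.52% and 7.04% for the AP-1 word TGANTCA, 4.41%, 5.24% and 10.5% for the SOX word ACAATG, 7.56%, 8.01% and 8.09% for the KLF word CACACCC, 7.72%, 8.86% and 4.83% for the NRF1 word GCGCATG, and 5.67%, 4.37% and 12.7% for the TATA box word TATAAA. It was 6.61%, 8.11% and 6.28% for the YY1 word AAGATGG, 11.3%, 11.1% and 7.91% for the Myc E-box CACGTG, 4.88%, 3.69% and 9.69% for the GATA-factor word AGATAA, 1.42%, 2.32% and 3.03% for the FOX word TGTTTAC, and 10.7%, 11.1% and 12.6% for CAGGAAG, an ETS core with A.

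The size of the set rested on single libraries. Without control replicate 2 the same rule gave 3179 gene-end regions, and without Zeb1-CKO replicate 1 it gave 1755, against 764 with all 4 libraries. When only peaks with a −log10 q of at least 3 were used in every library there were 754, but only 239 of the 764 members met that limit. The rest of the 754 were not members, and lay in regions where a control peak was listed once all peaks were used. With the 7608 strongest peaks of each list the rule gave 274 regions, which overlapped only 76 of the 764 members.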

How the data were processed

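Broad peaks were called by the authors for each library on its own and deposited as 4 lists in mm10 coordinates. The submitters' processing notes name MACS2 2.1.1, bedtools 2.26.0, SAMtools 1.3, Picard 2.9.2, Bowtie2 2.3.2 and Trimmomatic 0.36. Their settings, the filter on the lists and any shift of reads for the transposase offset are not given in the sources used here. For every peak the authors deposited the fold over background (a ratio), the −log10 of p and of q, and a score, equal to the −log10 q times 10 without its decimals. Every deposited −log10 q was above 1. These are the authors' own values for each peak and were used only within a list, to describe, rank and filter peaks, since depth is unknown.

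Merging, holding (an overlap of at least 1 bp), distances and counts were computed with Python 3.11.15, numpy 2.4.6, pandas 2.3.3 and scipy 1.17.1, and tested on simulated data. Genes were the 21627 RefSeq protein-coding genes on those chromosomes (GRCm38.p6), 17273 of them with a strand in the RefSeq promoter table, which gave 21019 distinct windows. No genome sequence was used, so motifs were searched in promoter windows and not in whole regions, on both strands and as exact words. The 17 words are spelled out beside their shares. Windows of neighbouring genes can overlap.

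The members, gene lists, families and motifs were chosen with earlier results of these data known. The genes named are the 15 best-ranked members, up to 6 members of each list or family by rank, the 5 widest, those with several regions or shared by 3 genes, and the 3 on either side of the window's edge. Others are said to be named after their values were seen. A few genes that the rule names are left out here. With 2 libraries a group no region or gene was tested. One value per library, the gene-end regions held, had an exact permutation test. The alternatives tried were a −log10 q limit of 3, the 7608 strongest peaks of each list, at least 50% of a region covered, peaks within 1 kb merged, windows of 500 bp and 3 kb, no control peak within 1 kb, each library left out, and the replicate number as a block.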

Additional observations from a re-analysis of the deposited data

How the results depend on the processing

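The set changed most with the libraries and the length of the lists. With each library left out in turn, Zeb1-CKO-only gene-end regions numbered 827 to 3179, control-only ones 16 to 309, the first as a share of gene-end regions 8.78% to 34.6%, their genes 944 to 3640, the share at a gene start 88.8% to 96.0%, the share of promoter-overlapping members with an E2-box 23.0% to 29.3%, epithelial list genes 23 to 39 and the median width 334 to 545 bp. With lists cut to the 7608 strongest peaks, the same quantities were 274, 103, 4.15%, 323, 95.6%, 35.5%, 10 and 489.5 bp. Those 274 regions overlapped only 76 of the 764 members, so these values are largely those of other regions. With at least 50% of a region covered, there were 1273 Zeb1-CKO-only and 14 control-only regions, a share of 13.4%, 1466 genes, an E2-box share of 24.5% and a median width of 652 bp. With a −log10 q of at least 3, there were 2 control-only regions, a share of 9.68%, an E2-box share of 24.5% and a median width of 567.5 bp. The share at a gene start was 95.7% with a 500 bp window and 87.3% with 3 kb. Where only the covered part of a promoter was searched, 24.6% of the 520 promoter-overlapping members had an E2-box, against 30.2% with whole windows. The other 44 values moved by less than the counting interval, the 1.5-fold limit on counts or the spread between libraries that applied. The cause of these changes was not tested. With the replicate number as a block, each Zeb1-CKO library was set against the control of its number. Every value, such as the count of 764, was then the same by construction, and these values are among the 44. Nothing in the labels says that a number pairs libraries.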

Other observations

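Some axon guidance families also held members. Of 11 ephrin and Eph receptor genes with a gene-end region 2 were members, Epha1 with folds of 5.0 and 6.19 and Epha2 with 4.29 and 5.24 in Zeb1-CKO replicates 1 and 2, against 8.29% of all genes. Of 16 semaphorin and plexin genes 4 were members: Plxnd1, an endothelial semaphorin receptor, with folds of 3.58 and 4.57 and a control peak 1011 bp away, Sema3f with 3.36 and 4.15, and also Sema6a and Plxnb1. Solute carriers gave 11 of 182 (6.04%), and zinc finger proteins 22 of 310 (7.10%).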
